A study of Mus musculus with 3 samples.

Results

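The tripartite motif (Trim) genes form one of the large families of RING-type E3 ubiquitin ligases. Members were taken as every protein-coding gene of the GENCODE M21 mouse annotation whose symbol is Trim, a number and at most 1 letter, a rule that uses no measured value. It gave 68 genes of the 22028 protein-coding genes. Levels came from RNA of the chromatin fraction of bone-marrow-derived macrophages, primary cells of C57BL/6J mice, sequenced as total RNA after ribosomal RNA depletion. All 3 libraries, biological replicates 1 to 3, belonged to 1 condition: Lipid A at 100 ng/ml for 12 h, a washout of 12 h, and then Lipid A at 100 ng/ml again for 25 min. Lipid A is the membrane anchor of lipopolysaccharide and the moiety sensed by TLR4. No genetic change is listed, age and sex were not collected, and the 3 libraries carry the same donor identifier, without a statement on separate animals. The starting RNA was 1 µg, 250 ng and 500 ng in replicates 1, 2 and 3. No unstimulated or once-stimulated library was analysed here, so the values describe levels within this state and no change with treatment.

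A Trim protein joins a RING finger, B-box zinc fingers and a coiled coil, and its C-terminal domain sets its targets. Several members restrict viruses or modify the sensors and kinases of innate immunity, and a subset is transcribed in response to type I interferon, which macrophages make and sense after TLR4 stimulation. Others silence genes in the nucleus, bind microtubules or act in muscle, neurons or germ cells.

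Annotated genes held 13502401, 17848798 and 17824176 expected counts in replicates 1, 2 and 3, and the 68 members 48622, 47380 and 50405 of these. Errors are SDs over the 3 libraries (n = 3), coordinates are those of mm10, and a gene counts as detected where no library has it below 1 TPM. TPM is abundance per transcript length, scaled to 1 total in every library. Levels are from the deposited gene tables, and the second quantification is a deposited set of transcript tables built on a transcript index. As a check of the cell label, 6 of 6 macrophage markers were detected, with summed levels from 786 to 840 TPM. None of 18 markers of T cells, B cells, neutrophils, erythroid cells, fibroblasts and skeletal muscle was detected. Their summed level per cell type was at most 0.63 TPM, and 7 of them, among them Cd3e, Ly6g, Hbb-bt and Myh4, were at 0 in every library.

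Start-site sequences are shown first because interferon acts through a short element, the interferon-stimulated response element. Its core, read as GAAA, any 2 bases and GAAA, was searched on both strands in the RefSeq start-site windows of GRCm38.p6, which run from 250 bases before to 50 bases after each listed start. Windows were found for 53 of the 68 members, and 9 of these (17.0%) held a match, against 689 of 17492 protein-coding genes (3.94%). The following 42-base runs read 5′ to 3′ on the strand of the gene, with the matched core in capitals. Where the capitals begin with TTTC, the core lies on the other strand.
Trim30a, chr7:104465213-104465254, minus strand: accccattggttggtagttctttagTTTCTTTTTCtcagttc
Trim12a, chr7:104315469-104315510, minus strand: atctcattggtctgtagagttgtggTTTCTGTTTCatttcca
Trim34a, chr7:104244442-104244483, plus strand: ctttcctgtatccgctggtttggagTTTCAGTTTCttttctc
Trim26, chr17:36836961-36837002, plus strand: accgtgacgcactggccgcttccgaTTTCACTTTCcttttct
Trim21, chr7:102565453-102565494, minus strand: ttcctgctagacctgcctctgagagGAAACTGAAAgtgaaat

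The run of Trim30d (chr7:104507874-104507915) was the same as that of Trim30a at all 42 bases. The runs of Trim5 (chr7:104288139-104288180) and Trim12c (chr7:104353362-104353403) were the same as that of Trim12a at all 42 bases. A further Trim30a start, chr7:104446107-104446148, carried the same core in a run that differed at 13 of 42 bases when compared position by position. That comparison allows no gap, so a base missing from a flank inflates the number of differences. Matches are counted per gene below, so this start adds no observation. Trim26 and Trim21 each held a further match that overlaps the one shown. The remaining match was that of Trim2. Of the 14 interferon-linked members with a window, 8 held the core (57.1%), and of the 39 other members 1 did (2.56%). Of those 8 genes, all but Trim21 and Trim26 lie in 1 run on chromosome 7. Trim30a with Trim30d, and Trim12a with Trim5 and Trim12c, have the same 42 bases, so they are not separate observations. The other 6, Trim25, Trim56, Trim30b, Trim30c, Trim34b and Trim38, had no match in these windows. For Trim30b and Trim38 the listed RefSeq start lies inside the GENCODE gene, away from its 5′ end. The sequence at that end was not searched, so their lack of a match does not cover it. Some members outside the list, such as Trim28 and Trim47, have their listed start inside the gene too. A match is a description of the sequence and not evidence of a bound site.

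Of the 68 members, 37 (54.4%) were detected, against 44.0% of all protein-coding genes. A mean of at least 10 TPM was reached by 21 members, against 23.2% of protein-coding genes, and a mean of at least 100 TPM by 3 members, against 2.25%. No count in any library was found for 11 members, against 31.5% of protein-coding genes. With 0 counts, up to 3 remain possible from counting error alone, or 0.222, 0.168 and 0.168 CPM (counts scaled to library size) in replicates 1, 2 and 3. In such bulk RNA, fewer cells with a transcript and less of it per cell cannot be told apart. The median level of all members was 1.51 ± 0.10 on the log2(TPM + 1) scale, and that of all protein-coding genes 0.61 ± 0.03. The members together held 0.468%, 0.458% and 0.441% of the protein-coding TPM. Within the family the RNA was concentrated: the 4 highest genes held 43.3% ± 2.51 of the members' TPM and the 15 highest 84.6% ± 1.36.

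**Figure D1:**
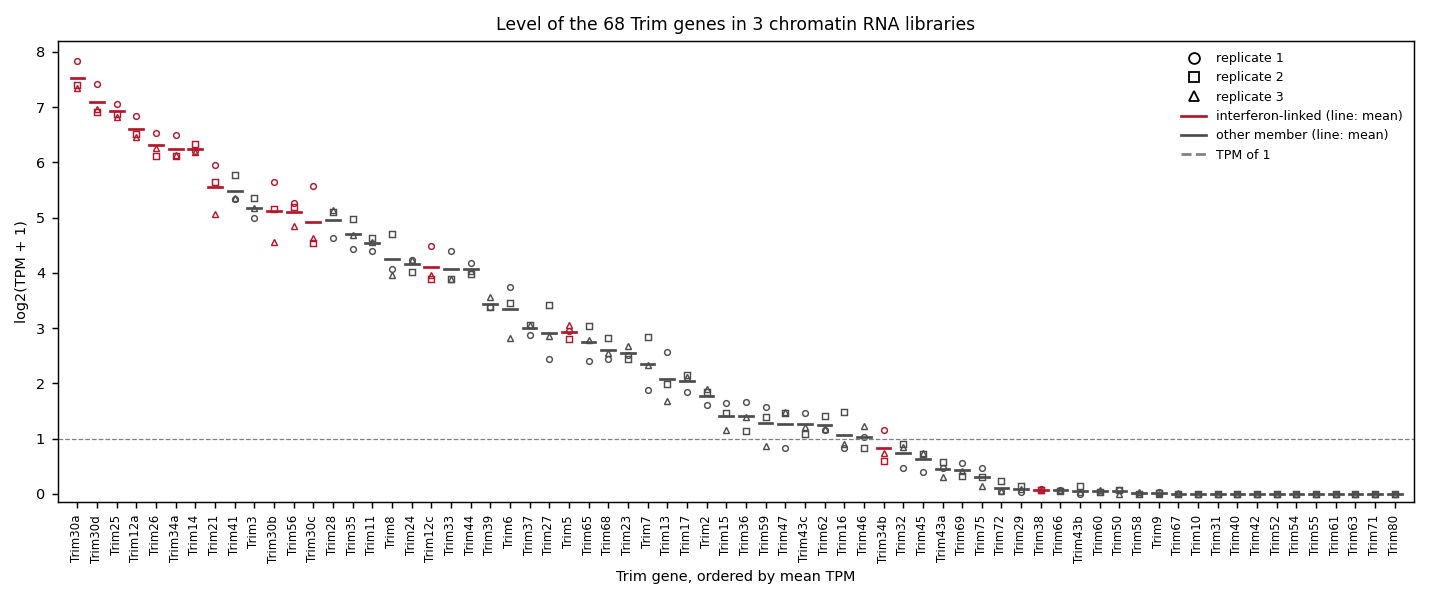
Level of the 68 Trim genes on the log2(TPM + 1) scale (y axis), ordered by mean TPM (x axis), with 1 symbol per library, a short line at the mean and a dashed line at 1 TPM; the 15 interferon-linked members are in red. Trim30a is at the upper end with a mean of 185 TPM, and 12 of the 15 red genes have means of 10 TPM or more.

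Trim30a, of a branch expanded in mice and a known brake on TLR signalling through the adaptors Tab2 and Tab3, was the highest member (chromosome 7, 104409025 to 104465193). Its level was 225.66, 168.34 and 160.98 TPM in replicates 1, 2 and 3, from 9358, 7637 and 8444 counts. It ranked 180th, 212th and 205th among protein-coding genes. Its neighbour Trim30d was at 168.94, 118.96 and 123.22 TPM. For both genes replicate 1 was the highest library, and their ranges overlapped, although Trim30a exceeded Trim30d in each of the 3 libraries. Trim25, the ligase that attaches ubiquitin to the RNA sensor RIG-I, was at 132.05, 116.98 and 112.34 TPM (chromosome 11, 88999376 to 89020293). These 3 genes were the members above 100 TPM, and neighbouring ranges overlapped in this order too.

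Trim12a, a mouse relative of the human retrovirus restriction factor TRIM5, followed at 113.33, 90.14 and 86.60 TPM. Trim26, a regulator of IRF3 signalling, was at 91.91, 68.70 and 75.78 TPM (chromosome 17, 36837134 to 36859398). Trim34a was at 88.75, 68.67 and 69.04 TPM. Each of these 3 stood highest in replicate 1, as Trim30a, Trim30d and Trim25 did. Trim14, an adaptor of the mitochondrial antiviral pathway that has no RING finger, differed in this: it was at 72.45, 80.03 and 71.93 TPM, with replicate 2 highest, although replicate 1 was highest in the second quantification. Trim21, the cytosolic receptor for antibody-coated virus, was at 60.65, 49.29 and 32.38 TPM (chromosome 7, 102557921 to 102565486). Among the 21 highest members in order, Trim14 and Trim21 were the only neighbours whose ranges did not overlap.

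The other interferon-linked members were lower. Trim30b was at 48.92, 34.59 and 22.52 TPM and Trim30c at 46.42, 22.23 and 23.84 TPM, both with replicate 1 apart from the others or at the upper end. Trim56, a ligase of antiviral signalling, was at 37.56, 35.45 and 27.81 TPM. Trim12c was at 21.35, 13.91 and 14.56 TPM and Trim5 at 6.71, 5.99 and 7.31 TPM, the latter with replicate 3 highest here and replicate 1 in the second quantification. The list was therefore not uniform: detected levels ran from 6.67 ± 0.661 TPM for Trim5 to 185 ± 35.4 for Trim30a. Of its 15 genes, 13 were detected (86.7%), and 12 had means of 10 TPM or more. Those not detected were Trim34b, at 1.22, 0.51 and 0.67 TPM from 26, 13 and 18 counts, and Trim38, a regulator of Tab2 and Tab3, with 1 count in each library.

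Of the 53 members outside that list, 24 were detected (45.3%). The interferon-linked members held 75.5% ± 4.07 of the family's TPM. Their median exceeded that of the other members by 5.11, 4.56 and 4.16 on the log2(TPM + 1) scale in replicates 1, 2 and 3 (4.61 ± 0.48). Among detected members alone the difference was 3.22. This difference is a description without a test.

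Among the members that are not on the interferon-linked list, Trim41, a ligase for protein kinase C, was highest at 39.23, 53.88 and 39.97 TPM. Trim3, of the branch with NHL repeats, followed at 31.01, 40.05 and 35.16 TPM, and Trim35 was at 20.71, 30.47 and 24.86 TPM. All 3 were highest in replicate 2 on this scale. In the second quantification Trim41 and Trim35 were highest in replicate 1 and Trim3 in replicate 3, and on CPM with TMM library sizes Trim3 was highest in replicate 3, so this order depends on the scale. Trim11 (22.2 ± 1.91 TPM) and Trim8, a regulator of cytokine signalling (18.5 ± 5.80 TPM), came next. Trim44, which lacks a RING finger, was at 15.7 ± 1.16 TPM.

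The branch with PHD and bromodomain modules works in the nucleus as transcriptional coregulators, and 3 of its 4 genes were detected. Trim28, the corepressor KAP1 that zinc-finger proteins recruit to silence transposons, was at 23.63, 33.34 and 33.99 TPM. Trim24, a coregulator of nuclear receptors, was at 17.74, 15.16 and 17.69 TPM. Trim33, which acts on Smad signalling, was at 20.13, 13.90 and 13.86 TPM. Trim28 was lowest in replicate 1 and Trim33 highest there. Trim66, known from testis, had 4, 5 and 8 counts and a level of at most 0.05 TPM. All 7 listed partners of Trim28 were detected, against 44.0% of all protein-coding genes. They were led by Chd3 (66.4 ± 6.26 TPM) and Hdac1 (65.7 ± 8.69), with the H3K9 methyltransferase gene Setdb1 at 27.5 ± 2.68.

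Regulators of signalling were mostly present: 12 of 14 were detected, all but Trim38 and Trim59, against 44.0% of all protein-coding genes. Of the 14, Trim21, Trim25, Trim30a, Trim38 and Trim56 are also on the interferon-linked list. Besides those named above, Trim39 was at 9.91 ± 0.779 TPM, Trim65, a ligase of the sensor MDA5, at 5.79 ± 1.44, Trim23, which ends in an ARF-like GTPase domain, at 4.84 ± 0.505 and Trim62 at 1.39 ± 0.237. Genes of other branches were fewer. Of the NHL-repeat genes 2 of 4 were detected, Trim3 and Trim2 (2.45 ± 0.356 TPM), and Trim32 was at 0.69 ± 0.271 and Trim71 at 0 counts. Of the 8 genes whose proteins carry the microtubule-binding COS box only Trim36 was detected, at 1.67 ± 0.481 TPM. Of the transmembrane pair, Trim13 of the endoplasmic reticulum was detected and Trim59 was not. Trim37, a ligase of peroxisomes and centrosomes, was at 7.01 ± 0.561 TPM.

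Lists named for other tissues held few detected members, against 44.0% of all protein-coding genes. None of 4 striated-muscle genes (Trim54, Trim55, Trim63, Trim72) and neither of the erythroid genes Trim10 and Trim58 was detected. The summed level of each of these 2 lists was at most 0.17 TPM per library. In the second quantification Trim63 was above the threshold, at 7.11, 4.12 and 5.75 TPM in replicates 1, 2 and 3. Of 11 genes known from embryo or testis 3 were detected, led by Trim17 at 3.12 ± 0.473 TPM, of 4 neural genes 1 (Trim2) and of 5 epithelial genes 1 (Trim15, 1.70 ± 0.443 TPM). Trim17 shares 708 exonic bases on the same strand with the histone gene Hist3h2a (18.2 ± 2.43 TPM), which makes its own level uncertain.

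Genes near the detection threshold were as follows. Just above it, Trim36 was at 2.17, 1.21 and 1.64 TPM and Trim43c at 1.76, 1.13 and 1.33. Just below it, Trim59 was at 1.96, 1.63 and 0.82 TPM. Trim16, at 0.79, 1.79 and 0.87, and Trim46, at 1.05, 0.79 and 1.34, came after it. All 3 genes below the threshold had a mean above 1 TPM and missed it in at most 2 libraries. The 11 members at 0 counts in every library were Trim10, Trim31, Trim40, Trim42, Trim52, Trim54, Trim55, Trim61, Trim63, Trim71 and Trim80. The other 20 undetected members had between 1 count in all and a mean of 1.47 TPM.

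Family genes lay in groups on the chromosomes. Of the 68 members, 30 fell into 8 runs in which neighbouring members were at most 500 kb apart. The longest run, 10 genes over 289 kb of chromosome 7 (104218793 to 104507849), held 47.6% ± 4.47 of the family's TPM, at 734, 533 and 515 summed TPM in replicates 1, 2 and 3. From the first gene to the last it reads Trim6, Trim34a, Trim5, Trim12a, Trim34b, Trim12c, Trim30b, Trim30c, Trim30a and Trim30d, and 9 of these were detected. Levels differed between neighbours: Trim34a and Trim12a, whose lowest libraries were at 68.67 and 86.60 TPM, flank Trim5 at 6.67 ± 0.661. The pseudogene Gm16464, inside Trim30d on the same strand, was listed at 44.3 ± 15.5 TPM, and Trim30e-ps1 beyond the run at 0.

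**Figure D2:**
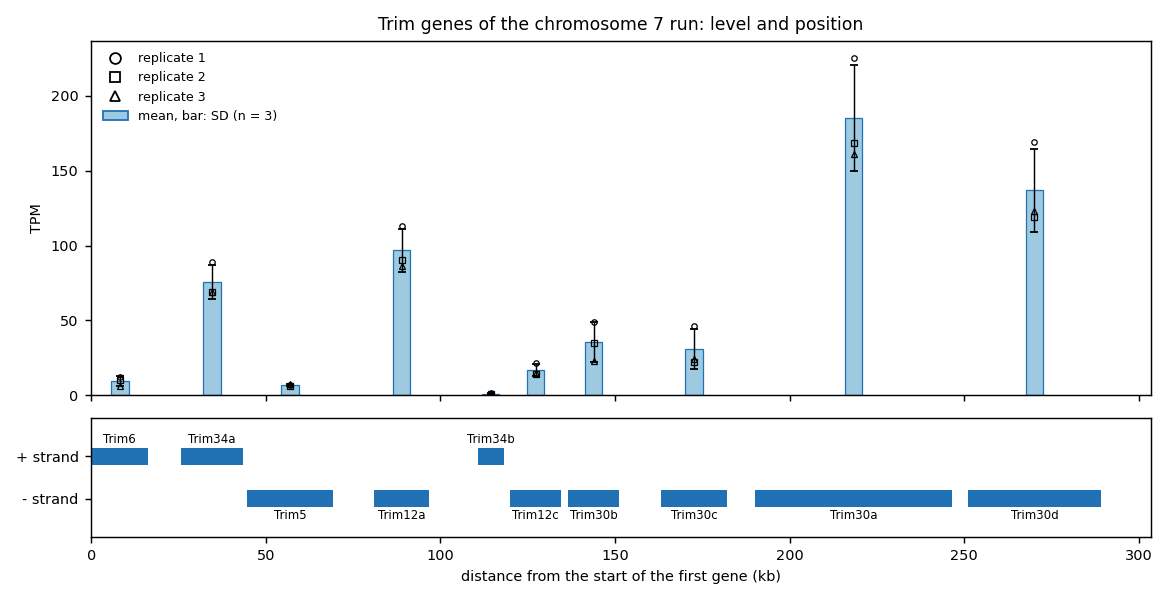
Level in TPM (upper panel, bars at the mean from 0 with SD, n = 3, 1 symbol per library) and position (lower panel, kb from the start of Trim6) of the 10 Trim genes of the chromosome 7 run. Trim30a and Trim30d at the far end have the tallest bars, and Trim34b, at 0.80 TPM, has the lowest.

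The run on chromosome 17 (36837134 to 36910214, 73.1 kb) was uneven in the same way. Trim26 was at 78.8 ± 11.9 TPM and its neighbour Trim15 at 1.70 ± 0.443, whereas Trim10, Trim40 and Trim31 had 0 counts. On chromosome 7 at 102557921 to 102687327, Trim21 lay beside Trim68 (5.13 ± 0.850 TPM). None of the 3 genes on chromosome 8 (Trim75, Trim60, Trim61) was detected, and of the Trim43 genes on chromosome 9 only Trim43c was. Trim43c shares 768 exonic bases with 9330159M07Rik (7.97 ± 1.57 TPM) on the other strand, which makes its own level uncertain. In the second quantification Trim43b was above the threshold too, at 1.51, 1.66 and 1.43 TPM in replicates 1, 2 and 3.

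Members share sequence with copies in these runs or with other genes, which limits how reads can be assigned. Of the 31-base words in a member's transcripts, a median of 1.60% occurred, on either strand, in another gene's transcripts. The same share was not computed for all genes. In 17 members the share was above 10% and in 6 above 50%. These 6 were Trim43c (71.8%), Trim34b (69.0%), Trim34a (68.5%), Trim43b (64.6%), Trim43a (63.7%) and Trim5 (53.0%). The words Trim34b shared all occurred in Trim34a, so the split of reads between a gene at 75.5 TPM and a gene at 0.80 TPM is uncertain. Trim12c shared 48.1%, mainly with Trim5, while Trim30a and Trim30d shared 11.9% each. Trim14 shared 36.3%, most of it with Nans (9.67 ± 1.65 TPM), a gene on the other strand with which it overlaps over 1356 exonic bases. For Trim13, Trim17, Trim42, Trim54, Trim59 and Trim72, also above 10%, the gene sharing most words was likewise outside the family. The strand setting of the counting is not given in the sources used here, and 22 members overlap exons of another gene, so reads of such pairs may not be separable.

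Members differed in which kinds of transcript carried their level. Of the members' TPM, 76.4% ± 1.76 was assigned to transcripts annotated as protein_coding. Trim30d, Trim25 and Trim34a have annotated transcripts of this class only, so their 100% is set by the annotation. Trim30a had 83.8% ± 4.11 in this class. Trim26 had 17.6% ± 4.37, with 41.4% ± 4.37 in Trim26-209, a transcript without an annotated reading frame, and 28.2% ± 3.31 in the retained-intron transcript Trim26-207. Trim28 had 12.7% ± 4.31 in its 1 protein_coding transcript, Trim28-201 of 3245 bases, which was at 1.87, 5.41 and 4.77 TPM. Trim21 had 34.5% ± 6.59 and Trim3 31.4% ± 6.43. In the second quantification the protein_coding share was 33.6% ± 1.57 for Trim26 and 58.0% ± 7.08 for Trim30a. It was 12.6% ± 3.98 for Trim28, 25.7% ± 3.69 for Trim21 and 22.3% ± 5.36 for Trim3. Most of these shares thus depend on the quantification. Trim41 also has protein_coding transcripts alone. Of its 100%, 45.2% ± 5.59 was in Trim41-202, a transcript of 429 bases resting on 56, 60 and 64 counts.

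Chromatin-bound RNA includes transcripts not yet spliced. The share given here counts only transcripts annotated as retained_intron, so it is not a measure of all unspliced RNA. It was taken for genes that have both protein_coding and retained_intron transcripts and 5 TPM or more in each library. For the 13 members that met this rule the median was 41.7%, 41.2% and 30.7% in replicates 1, 2 and 3 (37.9% ± 6.21), and for all 4726 such genes 46.0% ± 2.42. A share of at least 50% was found for 4 of the 13 members, against 42.8% of all such genes. These were Trim28 (67.0% ± 5.26), Trim21 (65.5% ± 6.59), Trim3 (63.5% ± 5.07) and Trim24 (63.3% ± 2.86). The lowest was Trim30a at 12.4% ± 3.03, but the second quantification gave it 36.5% ± 7.25.

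**Figure D3:**
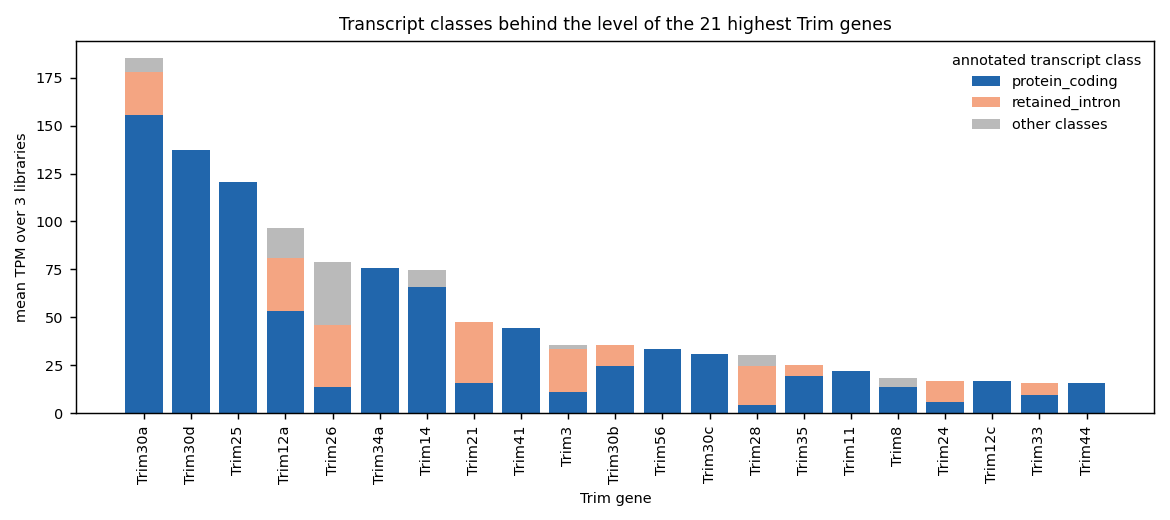
Mean TPM over the 3 libraries (y axis, from 0) of the 21 Trim genes with the highest mean (x axis), each bar divided into transcripts annotated as protein_coding, retained_intron or another class. Values are from the first quantification. The bars of Trim30d, Trim25 and Trim34a are protein_coding throughout because no other class is annotated for them. That class is 12.7% of Trim28 and 17.6% of Trim26, and 33.6% of Trim26 in the second quantification.

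The second quantification gave the same 15 genes as the 15 highest. All 37 detected members were detected there and 5 more were, so none was detected in the first alone. Of 45 members with a mean above 1 TPM in either, 4 had means at least 2 times apart, against 32.8% of such protein-coding genes. Trim52, listed at 0 in the gene table, had 39.97, 19.21 and 16.49 TPM in the single transcript Trim52-202 of 584 bases, from 260, 206 and 148 estimated counts. Trim63, which encodes the muscle ligase MuRF1, was at 0 and 5.66 ± 1.5 TPM, most of it in the retained-intron transcript Trim63-203. Trim34b was at 0.80 ± 0.372 and 4.0 ± 0.919 TPM and Trim43b at 0.04 ± 0.0513 and 1.54 ± 0.117, both genes with near copies. These 4 levels depend on the quantification, and for Trim52 and Trim63 neither value was checked against reads here. Other levels shifted too. Between the quantifications, 36 members, these 4 included, differed in mean by more than the SD of the first. The other 32 did not. Trim41 was at 44.4 ± 8.25 TPM in the first and 79.0 ± 1.16 in the second. Trim6 was at 9.46 ± 3.19 and 17.2 ± 4.84 TPM, and Trim14 at 74.8 ± 4.53 and 106 ± 19.3.

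**Figure D4:**
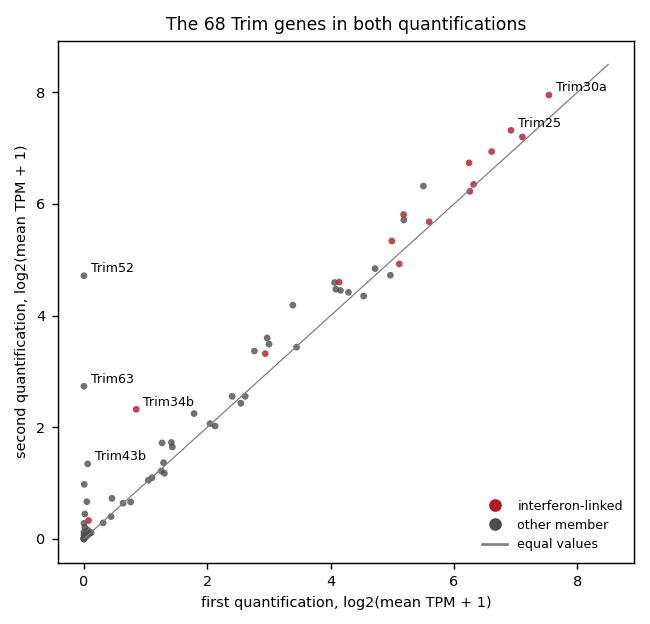
Mean level of each of the 68 Trim genes in the first (x axis) and the second quantification (y axis), both as log2(mean TPM + 1), with a line at equal values; interferon-linked members are in red. Trim52 and Trim63 lie on the left edge at 0 in the first, and Trim34b and Trim43b lie above the line by at least 2 times in TPM.

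Members did not all rank the libraries alike. Of the 37 detected members, 19 were highest in replicate 1, 13 in replicate 2 and 5 in replicate 3, against 41.6%, 38.5% and 19.9% of detected protein-coding genes. Of the 13 detected interferon-linked members, 11 were highest in replicate 1, and of the 24 other detected members 8 were. Trim14 and Trim5 were the exceptions. Among the 11, Trim34a, Trim12a, Trim12c, Trim30a, Trim30b, Trim30c and Trim30d lie in the longest run on chromosome 7. Some of these share sequence, so the 11 are not all separate observations. On CPM with TMM library sizes the counts were 11 of 13 and 7 of 24, against 34.1%, and on TPM rescaled over protein-coding genes 10 of 13 and 6 of 24, against 23.6%. In the second quantification they were 13 of 13 and 13 of 24, with 6306 of 9689 protein-coding genes highest in replicate 1. Replicate 1 also had the largest starting amount of RNA, the lowest total count and the largest share of counts in rows that are not genes (1.75%, against 0.396% and 0.239%). Its protein-coding genes held the largest share of all TPM too, 29.8%, against 26.4% and 25.4% in replicates 2 and 3. The part of these features in the difference was not tested.

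A ratio of at least 2 between the highest and the lowest library was found for 6 of the 37 detected members, against 9.26% of detected protein-coding genes. Trim30b and Trim30c, given above, had ratios of 2.17 and 2.09. Trim6, a neighbour of theirs that activates the kinase IKKε, was at 12.39, 9.94 and 6.06 TPM. Trim13 was at 4.91, 2.97 and 2.22 TPM, so these 4 genes were highest in replicate 1. Trim7 was at 2.67, 6.16 and 4.03 TPM and Trim27, a regulator of innate kinases, at 4.46, 9.76 and 6.29 TPM, both highest in replicate 2 on this scale. On CPM with TMM library sizes Trim7 was instead highest in replicate 3, at a ratio of 1.47. The number with a ratio of at least 2 was 4 on that CPM scale, where Trim6 (1.69), Trim7 and Trim30b (1.98) fell short and Trim36 (2.09) was added, and 2 with TPM rescaled over protein-coding genes. The median biological coefficient of variation of the 44 members fitted in edgeR was 0.201, and that of all 14193 genes fitted 0.203. Without replicate 1 both medians were lower, at 0.155 for the members and 0.165 for all genes fitted.

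**Figure D5:**
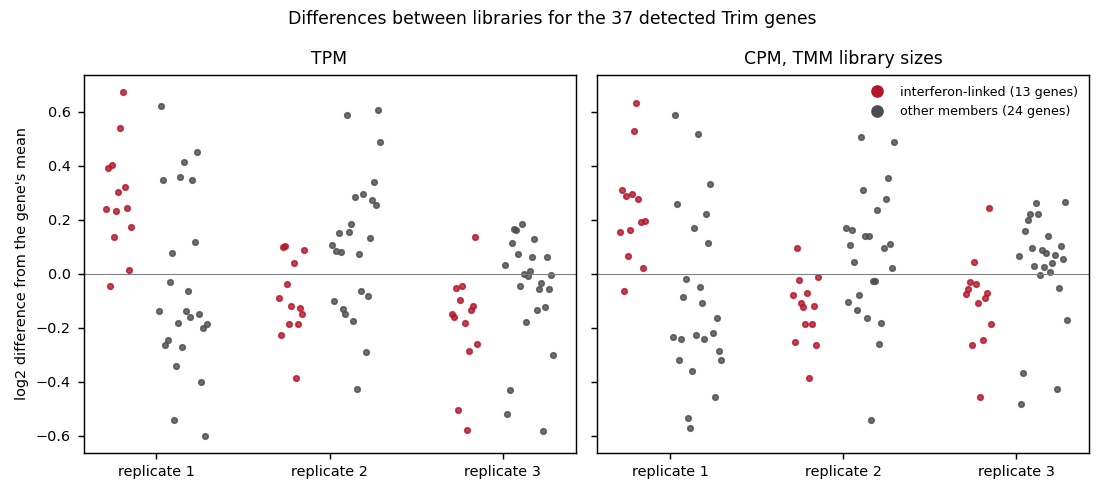
Difference of each detected Trim gene from its own mean on the log2 scale (y axis) in each library (x axis), on TPM (left) and on CPM with TMM library sizes (right); each point is 1 gene. The 13 red interferon-linked genes lie mostly above 0 in replicate 1, and the 24 grey genes spread to both sides.

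Genes that work with the family were also measured. Their detected shares stand beside 44.0% of all protein-coding genes. All 14 ubiquitin-conjugating (E2) enzymes listed were detected, led by Ube2d3 (109 ± 25.0 TPM), Ube2d2a (55.2 ± 9.05) and Ube2n (24.9 ± 5.14), which builds K63-linked chains. All 13 signalling partners that were matched by symbol, of 14 listed, were detected. Irf7 was at 315 ± 87.6 TPM, Ddx58, which encodes RIG-I, the substrate of Trim25, at 203 ± 73.4, and Tbk1 at 151 ± 40.3. Of 6 relatives with the tripartite fold but another name, 3 were detected. Pml, the organiser of nuclear bodies, was at 89.0 ± 16.8 TPM, between Trim12a and Trim26 in mean level, Mid1 at 45.1 ± 17.1 and Mefv, which encodes pyrin, at 13.0 ± 4.95.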

How the data were processed

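Ribosome-depleted total RNA of the chromatin fraction was measured in 3 libraries of 1 condition. The deposited gene tables hold expected counts and TPM under RSEM's column names, and the deposited second transcript tables estimated counts and TPM under kallisto's column names, per the file headers. The build mm10 and GENCODE M21 come from notes deposited with the files. For the aligner, versions and strand setting, nothing is given in the sources used here. Rows that are not annotated genes (1.75%, 0.396% and 0.239% of expected counts) were left out. Where nothing says that libraries came from separate animals, the SD may be technical.

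Members, lists and tests were chosen with earlier results of these data known. Named genes are the 15 highest members, the interferon-linked and PHD-bromodomain lists, members with library ratios of at least 2 or quantifications at least 2 times apart, and those next to the threshold. Trim46 was added for its tie with Trim16. Other lists are given by counts with their highest genes. With 1 condition no contrast was tested. In edgeR 4.0.16, rounded expected counts were used (R 4.3.3; filterByExpr, TMM, intercept only), and the dispersion step was tested on simulated data, where the estimates of single genes were pulled towards the trend. A pseudocount of 1 was used for log2 values, which understates differences of low genes. Second-quantification TPM were summed per gene. Sequences are from RefSeq (GRCm38.p6), and shared 31-base words were counted over GENCODE M21 transcripts, on both strands. Other tools were DESeq2 1.42.0 (size factors only), Python 3.11.15, numpy 2.4.6, pandas 2.3.3 and matplotlib 3.10.9.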

Additional observations from a re-analysis of the deposited data

How the results depend on the processing

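The number of detected members, 37, was 42 with the second quantification, 42 at a threshold of 0.5 TPM, 25 at 5 TPM, 44 with TPM rescaled over protein-coding genes, 42 with the posterior mean and 38 without any 1 library. With protein_coding transcripts alone, an alternative added after seeing the data, it was 35. The median log2 level moved from 1.51 to 0.96 with a pseudocount of 0.1, 4.06 for detected members alone, 2.14 with the second quantification and 2.97 with rescaled TPM. The family's share of protein-coding TPM, 0.456%, was 0.408% in the second quantification and 0.494% on expected counts. The difference between interferon-linked and other members, 4.61, was 5.50 with a pseudocount of 0.1, 3.22 for detected members alone and 4.09 with protein_coding transcripts alone, so it kept its sign in each of these. Leaving out each library in turn gave 1.46 to 1.55 for the median, 0.450% to 0.463% for the share, 4.36 to 4.83 for the difference, 36.0% to 41.5% for the retained-intron share and 0.155 to 0.235 for the coefficient of variation. The members with a library ratio of at least 2 numbered 2 with rescaled TPM and 4 on CPM with TMM or DESeq2 size factors, against 6. The cause of these shifts was not tested. No paired analysis was possible because all 3 libraries belong to 1 group. Depth limits the genes with few counts, such as Trim38 at 1 count per library.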
